A study of Arabidopsis thaliana with 12 samples.

Results

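The 81 genes described here were higher with abscisic acid (ABA) than in solvent controls and lower with the synthetic furan compound DFPM than in the same controls. They were chosen from group means of the deposited log2 expression values, as genes with an ABA minus control difference of at least 1 and a DFPM minus control difference of at most -1. A gene had to have a probe set, the set of oligonucleotides that reports one transcript on the array, that named 1 gene and reached log2 4 in at least 3 arrays. COR15B, COR47, GH3.5 and symbols that start with UGT, SWEET, BGLU or GSTU were left out. The rule chose 81 of 7705 such probe sets, or 81 of 7621 genes, each gene with 1 probe set, and none failed the filter on low values. Without the conditions on names, 165 of the 14401 probe sets kept showed both differences: the 81 genes, 76 unnamed probe sets, 5 that name several genes and 3 left out by symbol.

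RNA came from whole Arabidopsis thaliana seedlings of the Col0 ecotype, 12 days old and raised on plates, and was hybridised to 12 Affymetrix ATH1 arrays, 3 in each of 4 groups. The groups were ABA+DFPM (10 µM ABA and 30 µM DFPM for 6 h, with DFPM given 30 min ahead of ABA), ABA (10 µM for 6 h), DFPM (30 µM for 6 h, whose label repeats the remark on timing although it names no ABA dose) and control (water with the solvent DMSO, for which the labels give no time). The labels name the solvent for the controls alone. How many seedlings made up a sample, and whether the samples of a group were separate cultures, is not given in the sources used here, so p-values measure only how much these samples differ, and that spread may be technical. The samples are bulk tissue, in which a change in the share of a cell type and a change of RNA per cell cannot be told apart. The rule used the ABA, DFPM and control arrays, so the levels in these 3 groups are a description. The ABA+DFPM arrays were not used by it. Each comparison below sets them against arrays that the rule did use.

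ABA is the hormone that plants make under drought, cold and salt stress and in maturing seeds. Its receptors, once bound to the hormone, hold down a family of protein phosphatases and thereby free protein kinases that activate transcription factors at ABA-responsive promoters. The genes switched on in this way include late embryogenesis abundant and cold-regulated protective proteins, and ABA also closes stomata and restrains growth. DFPM was found in a screen for small molecules that block ABA responses, and it is known to act through genes of effector-triggered immunity.

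Before the results, 1 feature of the arrays bears on all of them. The sample titles number the arrays 1 to 3 in each group, and in every group the array numbered 3 stood apart: it correlated with the others at r of 0.875 to 0.920, while numbers 1 and 2 correlated at 0.987 to 0.992. For the 81 genes, the array numbered 3 lay below the mean of numbers 1 and 2 by a median of 1.43 on the log2 scale in ABA+DFPM, 0.53 in ABA, 0.62 in DFPM and 0.22 in control. Over all probe sets these medians lay within 0.02 of 0. The 3 ABA+DFPM arrays thus had medians of 7.37, 7.20 and 5.97 over the 81 genes. The labels do not say what the numbers mean, and their part in the results was not tested. The log2 difference between 3′ and 5′ probe sets of ubiquitin, a measure of RNA integrity and labelling, lay between 0.73 and 0.97 in the ABA+DFPM arrays and between 0.61 and 0.82 in the ABA arrays, against 1.04 to 1.25 in the DFPM arrays and 1.03 to 1.29 in controls, so it moved with ABA. The same difference for actin moved the same way: its highest value was 4.68 among the ABA+DFPM arrays and 4.63 among the ABA arrays, while its lowest was 4.86 among the DFPM arrays and also in controls. For GAPDH the ABA+DFPM arrays, between 1.05 and 1.27, overlapped the controls, between 1.09 and 1.31. Its ABA arrays, between 1.24 and 1.32, lay above its DFPM arrays, between 0.91 and 1.22, the opposite order to ubiquitin and actin. Their part in the results was not tested. Because of the arrays numbered 3, each count of the 81 genes called with ABA+DFPM is also given without those 4 arrays, a setting chosen after the data were seen. It leaves only the closely alike arrays numbered 1 and 2 in each group. Their spread may be technical, so p-values and counts of that setting may overstate the evidence. Photosynthesis genes were high, as leafy tissue has: RCA, the activase of Rubisco, averaged log2 10.50 with ABA+DFPM, 12.45 with ABA, 11.26 with DFPM and 13.33 in controls. Root-hair expansin EXPA7 averaged 5.51 with ABA+DFPM, 6.62 with ABA, 5.87 with DFPM and 6.60 in controls, and EXPA18, another root-hair expansin, averaged 4.52, 5.81, 5.07 and 6.24 in the same order, so markers of leaf and root were both present. These markers also moved: with ABA+DFPM, RCA was called lower than in controls (-2.83 ± 0.93, adjusted p = 0.0292), and EXPA18 lower than in controls (-1.72 ± 0.35, adjusted p = 0.00288) and than with ABA (-1.29 ± 0.35, adjusted p = 0.0374), while EXPA7 was not called. Their part in the results was not tested.

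Across the 81 genes the median of the group means was log2 6.98 with ABA+DFPM, 8.51 with ABA, 4.83 with DFPM and 6.64 in controls. Over all 14401 probe sets kept it was 7.31 with ABA+DFPM, 7.34 with ABA, 7.32 with DFPM and 7.35 in controls. With DFPM 30 of the 81 genes averaged under log2 4, near the low end of the scale, against 6 with ABA+DFPM, 0 with ABA and 6 in controls. The genes also varied more within a group than other probe sets did: their median SD was 0.92 with ABA+DFPM, 0.49 with ABA, 0.78 with DFPM and 0.67 in controls, while over all probe sets kept it was 0.37 with ABA+DFPM, 0.29 with ABA, 0.33 with DFPM and 0.34 in controls.

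**Figure D1:**
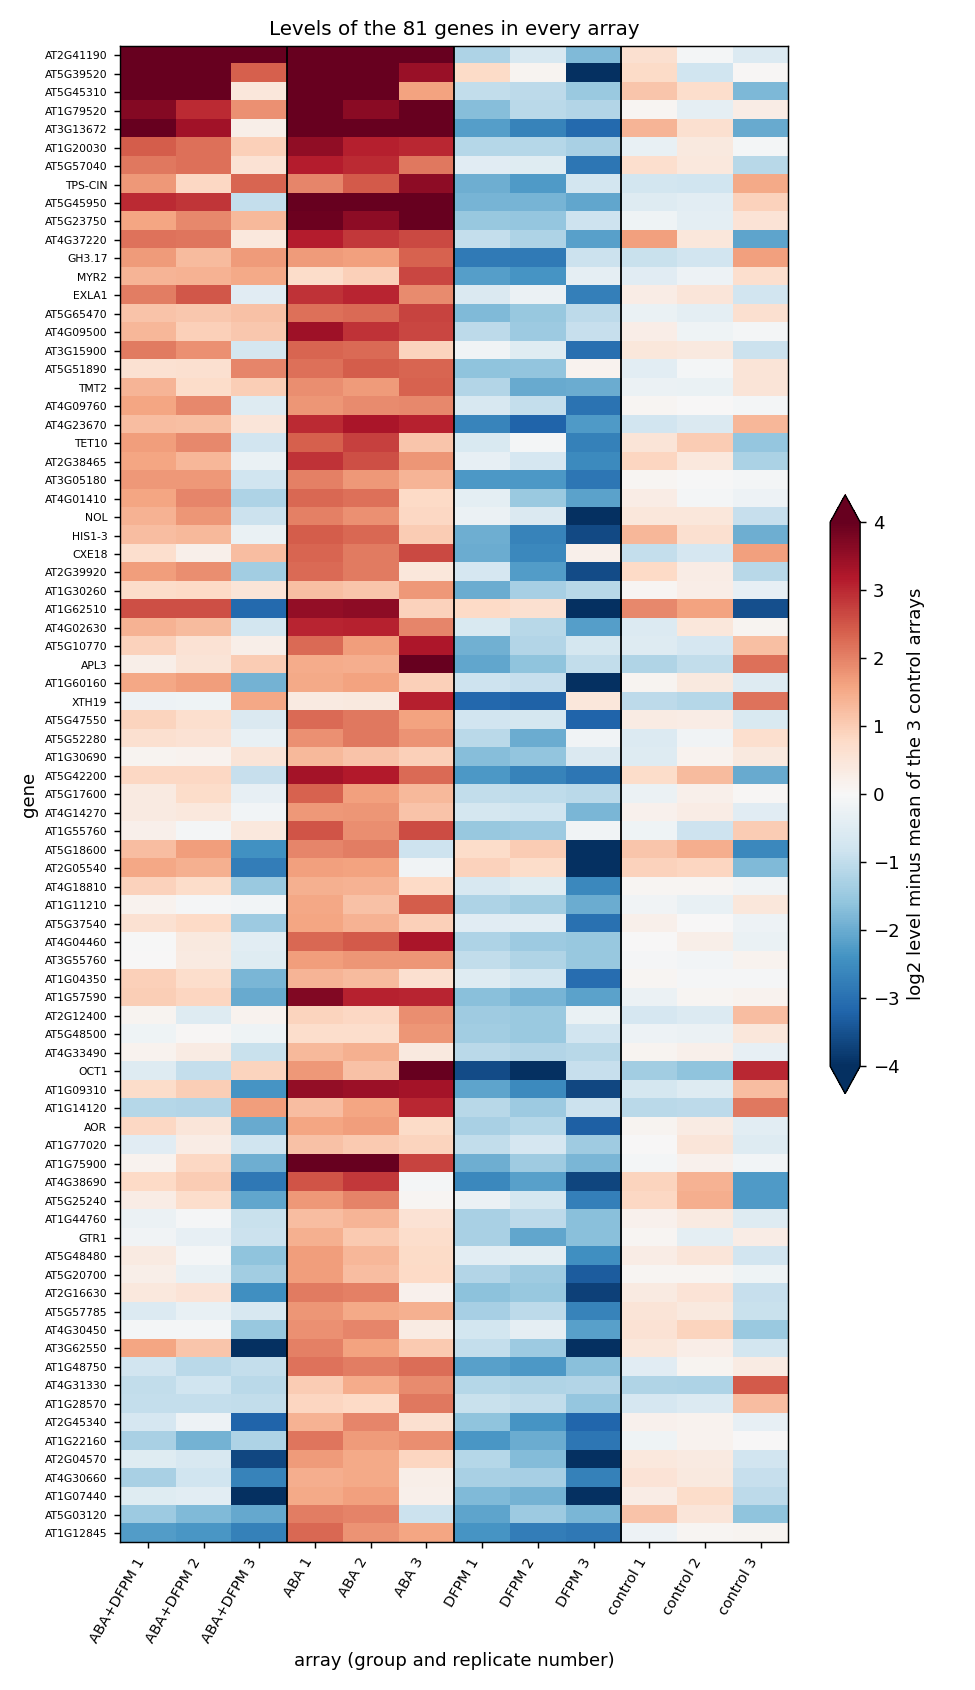
Log2 level of each of the 81 genes (rows) in each of the 12 arrays (columns, by group and replicate number), less the mean of the 3 control arrays of that gene; red is above the controls, blue below, and the colour scale ends at 4 and -4. The ABA columns are red and the DFPM columns blue by the rule, the ABA+DFPM columns are mixed, and the ABA+DFPM column numbered 3 is bluer than those numbered 1 and 2.

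The ABA minus control difference ran from 1.04 to 8.31 with a median of 1.83, and the DFPM minus control difference from -2.96 to -1.02 with a median of -1.45. AT2G41190 had the highest ABA difference, and OCT1 the lowest DFPM difference. The limma test, adjusted by the Benjamini-Hochberg method over all probe sets, called 44 of the 81 genes higher with ABA than in controls (14.6% of all probe sets were) and 30 lower with DFPM than in controls (11.4% of all were). These counts follow from the choice and nothing is read from them. Just inside the thresholds lay AT1G77020, whose smaller difference was 1.019, AT5G51890 with 1.021 and AT5G17600 with 1.026. Just outside lay AT3G47295 and AT4G30650, each with 0.997, and AT1G49450 with 0.994.

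The same choice made on the arrays numbered 1 and 2 alone gave 69 genes, 57 of them among the 81. In the arrays numbered 3, which that choice did not use, 64 of the 69 were both higher with ABA and lower with DFPM than the control array, and 40 were past 1 in both directions. In the same arrays ABA+DFPM lay below the control for 38 of the 69 and above it for 31. The shares over all probe sets are not given for these counts. With 1 array per group there is no test. A choice without number 1 gave 91 genes, of which 82 had both directions in number 1 and 42 were past 1 in both. Without number 2 it gave 95 genes, with 86 and 47 in number 2. Here ABA+DFPM mostly lay above the control: for 69 of the 91 in number 1, with 22 below, and for 71 of the 95 in number 2, with 24 below. For these counts too the shares over all probe sets are not given. Arrays numbered 1 and 2 were too much alike for a choice on the one to be checked in the other.

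With both agents together the group mean of every one of the 81 genes lay between the DFPM mean and the ABA mean. The rule sets those means at least 2 apart on the log2 scale, so a place between them is largely fixed by the choice: of the 899 other probe sets kept with an ABA mean at least 2 above the DFPM mean, 781 (86.9%) had their ABA+DFPM mean between as well, at a median position of 0.66 on the scale that follows. Set on a scale from 0 at the DFPM mean to 1 at the ABA mean, the ABA+DFPM mean had a median position of 0.52 (quartiles 0.39 and 0.68, range 0.01 to 0.99). It was nearer to ABA for 45 genes and nearer to DFPM for 36. The control mean of the same genes had a median position of 0.47, in a range of 0.13 to 0.70 that the rule limits. Nearest to the ABA mean were MYR2 at 0.99, AT5G39520 at 0.93, GH3.17 at 0.92 and AT2G41190 at 0.86. Nearest to the DFPM mean were AT5G03120 at 0.01, AT1G12845 at 0.05, AT4G30660 and AT1G28570 at 0.07 and AT4G31330 at 0.09. For some of these both means lay near the low end of the scale. With ABA+DFPM and DFPM they were 2.93 and 2.89 for AT5G03120, 2.86 and 2.69 for AT1G28570, and 2.81 and 2.58 for AT4G31330. Their positions cannot be told apart from a lack of signal in both groups.

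**Figure D2:**
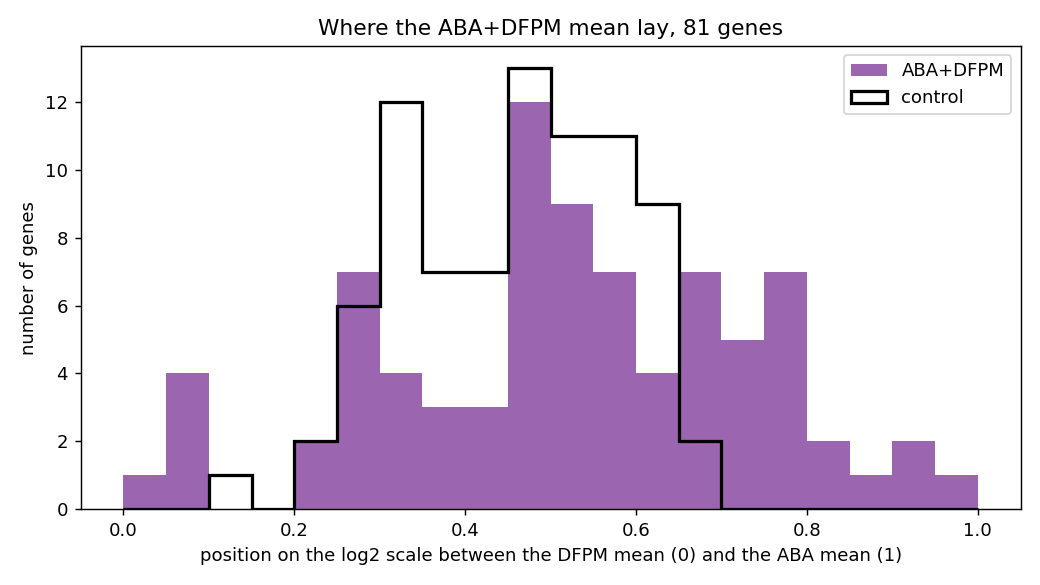
Number of genes (vertical axis) by the position of the ABA+DFPM mean (filled bars) and of the control mean (black outline) on the log2 scale between the DFPM mean, at 0, and the ABA mean, at 1. The ABA+DFPM positions spread from 0.01 to 0.99 around a median of 0.52, and the control positions lie between 0.13 and 0.70.

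ABA+DFPM arrays were first set against controls. The median difference of the 81 genes was 0.24 on the log2 scale (quartiles -0.32 and 0.97, range -2.42 to 7.02), against -0.06 over all probe sets kept. Of the 81, 8 rose and 3 fell, together 13.6%, where 47.4% of all probe sets passed the same test (22.0% higher, 25.4% lower). The control arrays entered the choice, set below ABA and above DFPM, so this count is not independent of it. The differences of 35 genes lay within 0.5 of 0 and those of 55 within 1. Their median size was 0.68, against 0.84 over all probe sets, but their median standard error was also 0.68, against 0.32 over all probe sets. A gene not called here has therefore not been shown to sit at the control level. All 3 ABA+DFPM arrays lay on one side of all 3 control arrays for 15 genes, or for 56.1% of all probe sets.

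With the replicate number as a block in the fit, 21 of the 81 genes rose and 10 fell, and 64.2% of all probe sets were called. With the close arrays numbered 1 and 2 averaged first, the same block gave 10 higher and 6 lower, 9 of the 11 genes among them, and 46.9% of all probe sets. Below, 9 blocked p-values of single genes are given for calls that the fit without the block did not make; with numbers 1 and 2 averaged 4 of them held (AT2G41190, OCT1, AT3G13672 and TPS-CIN) and 5 did not (TMT2, HIS1-3, GH3.17, EXLA1 and TET10, with adjusted p of 0.0568 to 0.138). Without the 4 arrays numbered 3 the count was 45 higher and 11 lower, with 68.6% of all probe sets called, and all 11 genes of the fit to 12 arrays were among them. Without the 4 arrays numbered 1 it was 6 genes (15.9% of all probe sets), without those numbered 2 it was 3 (13.3% of all), and without ABA+DFPM replicate 3 alone it was 20 (44.4% of all). Within the replicate numbers the median ABA+DFPM minus control difference of the 81 genes was 0.74 for number 1, 0.70 for number 2 and -0.45 for number 3, and 62, 61 and 31 genes were above the control array of their number. Over all probe sets these medians were -0.08, -0.06 and -0.05. The sign was positive in all 3 numbers for 27 of the 81 genes and negative in all 3 for 14. Shares over all probe sets are not given for these sign counts.

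Of the genes called against controls, the only one with a gene symbol other than its locus tag was TMT2, a sugar carrier of the tonoplast, the membrane around the vacuole, that loads glucose and other monosaccharides into it. TMT2 (AT4G35300) measured log2 8.41, 7.76 and 8.02 in the ABA+DFPM arrays, 8.90, 8.73 and 9.40 with ABA, 5.86, 5.03 and 5.04 with DFPM, and 6.79, 6.78 and 7.55 in controls. The lowest ABA+DFPM array lay above the highest control array, and the lowest ABA array lay above the highest ABA+DFPM array. The difference from controls was 1.03 ± 0.32 (SE, adjusted p = 0.0227), a 2.04-fold higher level, and the call was lost in 6 of 23 alternatives, among them without ABA+DFPM replicate 1 and without control replicate 1 or 2. Against ABA the difference was -0.94 ± 0.32 (adjusted p = 0.0822, and 0.0305 with the replicate block).

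The other 10 genes called against controls carry only a locus tag in the tables used here, and no role is given for them. AT2G41190 measured log2 11.93, 11.42 and 10.14 in the ABA+DFPM arrays, 12.70, 12.45 and 12.22 with ABA, 2.91, 3.51 and 2.39 with DFPM, and 4.78, 4.06 and 3.60 in controls. The groups with ABA stood far above those without it, and the array numbered 3 was the lowest in all 4 groups. Its difference from controls was 7.02 ± 0.47 (SE, adjusted p = 5.65e-06), about 130-fold, and the call held in all 23 alternatives. Against ABA alone the difference of AT2G41190 was -1.29 ± 0.47 (adjusted p = 0.106, and 0.012 with the replicate block).

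AT5G39520 measured 13.87, 13.72 and 12.12 with ABA+DFPM, 13.85, 13.75 and 13.19 with ABA, 10.48, 9.83 and 5.13 with DFPM, and 10.49, 8.93 and 9.77 in controls. In the DFPM group it met the rule through the array numbered 3, since the DFPM arrays numbered 1 and 2 lay within the range of the controls. The ABA+DFPM difference from controls was 3.5 ± 1.16 (adjusted p = 0.0309) and was not called in 8 of 23 alternatives, without ABA+DFPM replicate 1 or 2 and without control replicate 2 or 3 included. AT1G79520 measured 9.86, 9.18 and 8.03 with ABA+DFPM, 10.31, 9.79 and 10.18 with ABA, 4.50, 5.13 and 5.01 with DFPM, and 6.26, 5.82 and 6.50 in controls. Here all ABA+DFPM arrays lay above all controls, and the highest of them overlapped the ABA arrays. The difference from controls was 2.83 ± 0.41 (adjusted p = 0.000458) and was called in all 23 alternatives.

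AT1G20030 measured 7.0, 6.77 and 5.53 with ABA+DFPM, 8.11, 7.68 and 7.57 with ABA, 3.42, 3.42 and 3.27 with DFPM, and 4.26, 4.95 and 4.49 in controls. The 4 groups did not overlap in that order of ABA, ABA+DFPM, control and DFPM. ABA+DFPM exceeded controls by 1.87 ± 0.35 (adjusted p = 0.00208) and lay 1.35 below ABA on the log2 scale (a difference of -1.35 ± 0.35, adjusted p = 0.0341, lost in 12 of 23 alternatives, without ABA+DFPM replicate 3, DFPM replicate 1 or 2 or any 1 ABA array included). AT5G23750 measured 5.92, 6.26 and 5.63 with ABA+DFPM, 8.28, 7.94 and 8.38 with ABA, 2.82, 2.80 and 3.52 with DFPM, and 4.17, 3.97 and 4.90 in controls. It had the same order with no overlap. Its differences were 1.59 ± 0.30 from controls (adjusted p = 0.00198) and -2.27 ± 0.30 from ABA (adjusted p = 0.00137).

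AT5G65470 measured 8.61, 8.52 and 8.62 with ABA+DFPM, 9.67, 9.72 and 10.15 with ABA, 5.70, 5.94 and 6.40 with DFPM, and 7.20, 7.07 and 8.10 in controls. AT4G09500 measured 4.92, 4.52 and 4.67 with ABA+DFPM, 6.96, 6.48 and 6.26 with ABA, 2.53, 2.14 and 2.65 with DFPM, and 3.84, 3.41 and 3.49 in controls. Both genes kept the groups apart in the order ABA, ABA+DFPM, control and DFPM. Both rose against controls by 1.12, with a standard error of 0.29 and an adjusted p of 0.00996 for AT5G65470, and of 0.23 and 0.00335 for AT4G09500. Against ABA, AT4G09500 fell by 1.87 (adjusted p = 0.00102) and AT5G65470 fell by 1.26 (adjusted p = 0.0192) on the log2 scale, a call that was lost without ABA+DFPM replicate 2 or ABA replicate 2 or 3.

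The 3 genes that fell below controls with both agents follow. AT1G12845 measured 4.43, 4.34 and 3.98 with ABA+DFPM, 8.97, 8.47 and 8.26 with ABA, 4.32, 3.91 and 3.82 with DFPM, and 6.48, 6.76 and 6.77 in controls. The ABA+DFPM arrays overlapped the DFPM arrays and lay below every control and every ABA array. Its difference was -2.42 ± 0.23 from controls (adjusted p = 4.27e-05, called in all 23 alternatives), a 5.35-fold lower level, and -4.32 ± 0.23 from ABA (adjusted p = 1.79e-05), the largest fall of the 81 genes against ABA. From DFPM it was 0.23 ± 0.23 (adjusted p = 0.549).

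AT1G22160 measured 3.99, 3.39 and 4.04 with ABA+DFPM, 7.42, 6.99 and 7.16 with ABA, 2.97, 3.31 and 2.41 with DFPM, and 5.13, 5.44 and 5.29 in controls. AT1G48750 measured 6.81, 6.52 and 6.64 with ABA+DFPM, 9.76, 9.62 and 9.83 with ABA, 5.42, 5.30 and 5.90 with DFPM, and 7.14, 7.71 and 7.91 in controls. In both, no groups overlapped and the order was ABA, control, ABA+DFPM and DFPM. AT1G22160 fell by 1.48 against controls (SE 0.26, adjusted p = 0.00148) and by 3.38 against ABA (adjusted p = 6.99e-05). AT1G48750 fell by 0.93 against controls (SE 0.23, adjusted p = 0.00849) and by 3.08 against ABA (adjusted p = 5.83e-05).

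**Figure D3:**
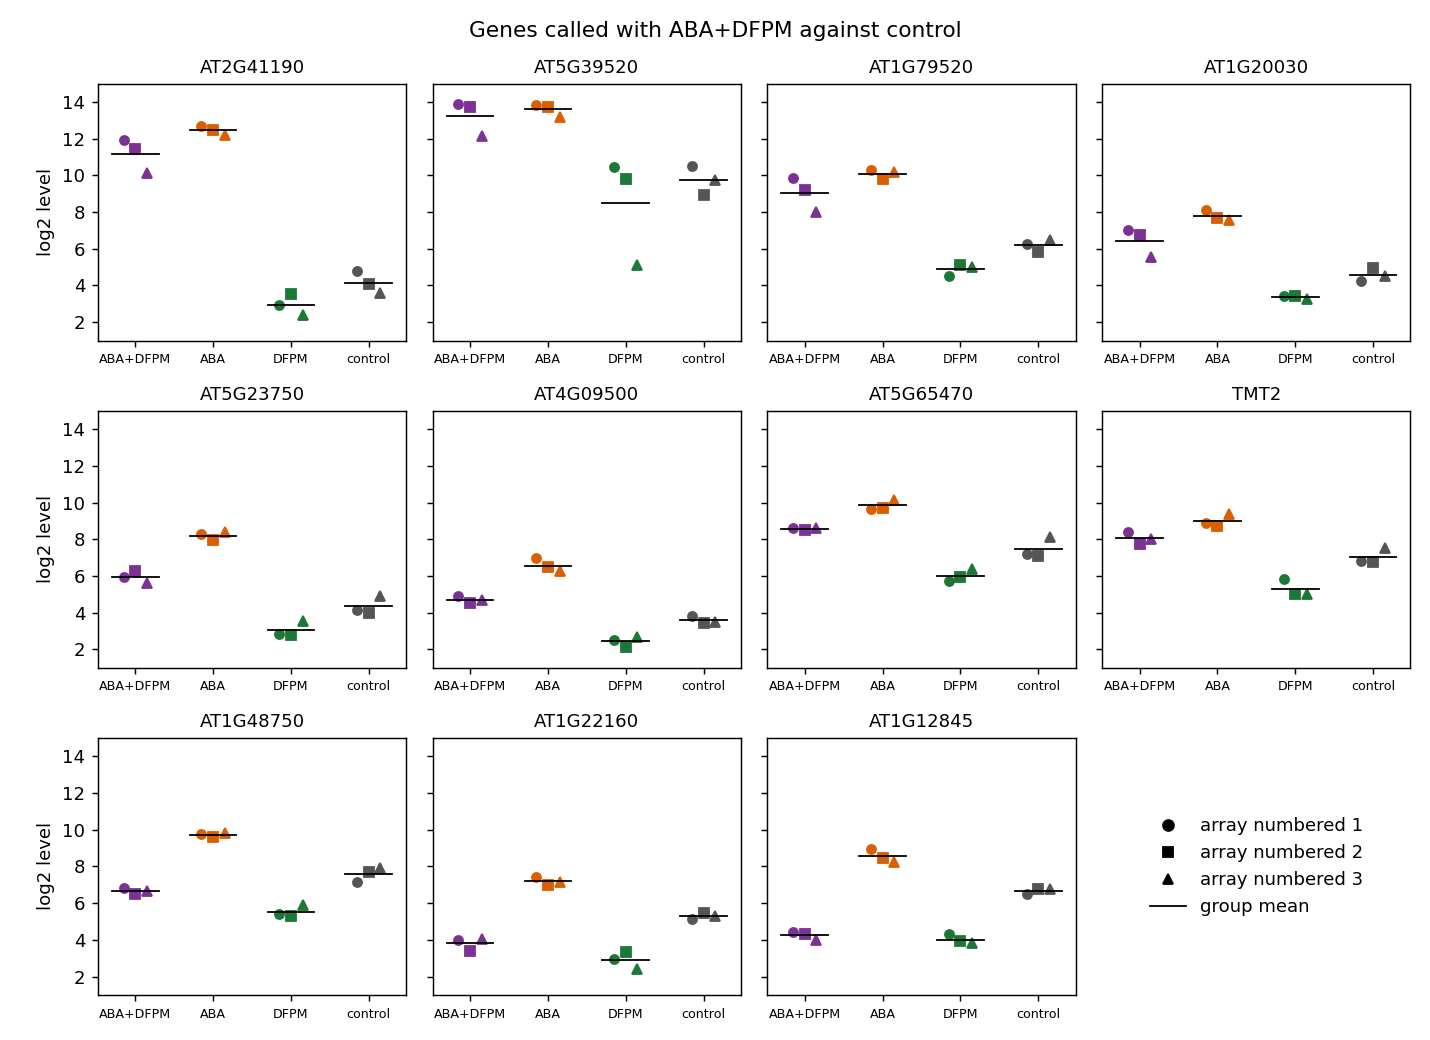
Log2 level of the 11 genes called with ABA+DFPM against control, in each array (circles, squares and triangles for the arrays numbered 1, 2 and 3) by group, with group means as lines. For the 8 genes that rose, all ABA+DFPM points lie above the control points; for AT1G48750, AT1G22160 and AT1G12845 they lie below.

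The 12 genes for which the smaller of the differences of the rule was largest include AT1G12845, AT1G22160 and AT1G48750, and 3 with a gene symbol. OCT1, a carrier of carnitine and other organic cations, measured 7.28, 6.84 and 8.68 with ABA+DFPM, 9.53, 8.97 and 12.58 with ABA, 4.22, 3.39 and 6.87 with DFPM, and 6.39, 6.19 and 10.79 in controls. In every group the array numbered 3 was the highest, opposite to most of the 81 genes. OCT1 differed from controls by -0.19 ± 1.40 (adjusted p = 0.921) and from ABA by -2.76 ± 1.40 (adjusted p = 0.235, and 0.00343 with the replicate block).

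HIS1-3, a linker histone known to be induced by drought and ABA, measured 9.36, 9.41 and 7.84 with ABA+DFPM, 10.55, 10.42 and 9.14 with ABA, 6.15, 5.44 and 4.50 with DFPM, and 9.44, 8.74 and 6.16 in controls. The array numbered 3 was the lowest in each group, and ABA+DFPM overlapped both ABA and control but not DFPM. Its differences were 0.76 ± 0.83 from controls (adjusted p = 0.475), -1.17 ± 0.83 from ABA (adjusted p = 0.399, and 0.0335 with the replicate block) and 3.51 ± 0.83 from DFPM (adjusted p = 0.0211, lost without ABA+DFPM replicate 1 or 2 or DFPM replicate 2). GH3.17, an enzyme that joins the hormone auxin to an amino acid, measured 7.64, 7.20 and 7.63 with ABA+DFPM, 7.63, 7.56 and 8.29 with ABA, 3.12, 3.12 and 5.06 with DFPM, and 5.05, 5.18 and 7.57 in controls. The ABA+DFPM arrays overlapped those with ABA and reached down into the highest control. GH3.17 differed from controls by 1.55 ± 0.69 (adjusted p = 0.0883, and 0.0115 with the replicate block), from ABA by -0.34 ± 0.69 (adjusted p = 0.789) and from DFPM by 3.72 ± 0.69 (adjusted p = 0.00693).

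AT3G13672 carries the synonym SINA2, after a family of ubiquitin ligases. It measured 9.43, 8.61 and 5.48 with ABA+DFPM, 11.09, 10.60 and 9.84 with ABA, 3.04, 2.56 and 2.14 with DFPM, and 6.61, 5.88 and 3.22 in controls. The ABA+DFPM array numbered 3 lay below the controls numbered 1 and 2. The ABA+DFPM difference from controls was 2.6 ± 1.04 (adjusted p = 0.0628, and 0.00355 with the replicate block) and that from DFPM was 5.26 ± 1.04 (adjusted p = 0.00982). AT4G23670 measured 11.40, 11.36 and 10.63 with ABA+DFPM, 13.13, 13.41 and 13.22 with ABA, 7.53, 6.95 and 7.90 with DFPM, and 9.38, 9.59 and 11.50 in controls. Its control array numbered 3 lay above all 3 ABA+DFPM arrays, the difference from controls was 0.97 ± 0.50 (adjusted p = 0.137), and that from ABA was -2.13 ± 0.50 (adjusted p = 0.0223, lost in 8 of 23 alternatives, without ABA+DFPM replicate 3 or any 1 ABA array included).

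The remaining genes of these 12 had an ABA+DFPM array numbered 3 far below those numbered 1 and 2. AT1G09310 measured 11.33, 11.59 and 8.25 with ABA+DFPM, 14.11, 14.03 and 13.92 with ABA, 8.48, 8.05 and 6.96 with DFPM, and 9.89, 10.07 and 11.83 in controls. AT5G45950 measured 7.22, 7.09 and 3.26 with ABA+DFPM, 9.75, 9.36 and 8.70 with ABA, 2.38, 2.38 and 2.14 with DFPM, and 3.72, 3.81 and 5.15 in controls. AT1G57590 measured 6.48, 6.36 and 3.5 with ABA+DFPM, 9.21, 8.58 and 8.55 with ABA, 3.85, 3.64 and 3.37 with DFPM, and 5.27, 5.60 and 5.66 in controls. In these 3 genes the ABA+DFPM arrays numbered 1 and 2 lay above the controls of those numbers, and the one numbered 3 lay below every control. The differences from controls over 12 arrays were -0.21 ± 0.84 for AT1G09310 (adjusted p = 0.856), 1.62 ± 0.90 for AT5G45950 (adjusted p = 0.16) and -0.06 ± 0.65 for AT1G57590 (adjusted p = 0.946). Without the 4 arrays numbered 3 they were 1.48, 3.39 and 0.99, with limma adjusted p of 0.000239, 3.59e-06 and 0.00614. These p-values rest on the closely alike arrays numbered 1 and 2 alone and may be too small. AT5G42200 measured 6.01, 6.00 and 4.25 with ABA+DFPM, 8.52, 8.35 and 7.45 with ABA, 2.89, 2.50 and 2.29 with DFPM, and 5.93, 6.45 and 3.18 in controls. Its ABA+DFPM arrays lay within the range of the controls, at a difference of 0.24 ± 0.78 (adjusted p = 0.823).

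Set against ABA alone, the level with both agents was lower for all 81 genes by group mean, with a median difference of -1.56 (range -4.32 to -0.04) and -0.09 over all probe sets. The test called 27 genes lower and 0 higher, or 33.3%, where 12.6% of all probe sets were called (5.96% lower). Groups did not overlap for 52 genes, or for 35.8% of all probe sets. The genes were chosen high with ABA, so a lower value in arrays that did not enter the choice is partly fixed by it, and the count is not read as particular to them. The count was 60 lower with the replicate block (31.2% of all probe sets called), but 28 with the block and numbers 1 and 2 averaged (9.61% of all, 19 of the 27 genes among them). It was 64 without the 4 arrays numbered 3 (63 lower and 1 higher, all 27 genes among them, and 36.6% of all). It was 3 without those numbered 1 (0.722% of all) or without those numbered 2 (0.486% of all), and 14 without ABA replicate 1 (6.56% of all) or without ABA replicate 2 (6.28% of all). The sign was negative in all 3 replicate numbers for 75 genes, with medians of -1.35, -1.27 and -2.17 in numbers 1, 2 and 3. Over all probe sets these medians were -0.07, -0.06 and -0.09. The sign is partly fixed by the choice, and its share over all probe sets is not given, so the 75 do not measure reproducibility.

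The largest falls against ABA, after AT1G12845, were those of AT1G75900 (-4.29 ± 0.68, adjusted p = 0.00337), AT1G09310 (-3.63 ± 0.84, adjusted p = 0.0199) and AT5G45950 (-3.41 ± 0.90, adjusted p = 0.0345). The calls of AT1G09310 and AT5G45950 were each lost on leaving out any 1 of the 3 ABA arrays, and that of AT5G45950 also without DFPM replicate 1 or 2 or control replicate 2. GTR1, a transporter of glucosinolates, the sulfur-containing defence compounds of this plant family, was the only gene with its own symbol that was called here. It averaged 7.93 ± 0.38 with ABA+DFPM, 9.43 ± 0.35 with ABA, 6.70 ± 0.38 with DFPM and 8.38 ± 0.35 in controls (SD, n = 3 each). GTR1 fell by 1.49 against ABA (SE 0.29, adjusted p = 0.01) and differed by -0.44 ± 0.29 from controls (adjusted p = 0.236). Also called lower than with ABA were AT1G22160, AT1G57590, AT1G48750, AT2G45340, AT4G04460, AT4G30660, AT5G23750, AT1G28570, AT1G55760, AT4G23670, AT5G57785, AT4G09500, AT3G55760, AT1G11210, AT5G52280, AT5G17600, AT1G44760, AT1G77020, AT1G20030, AT4G14270, AT5G65470 and AT5G48500, with differences between -3.38 and -1.16. These calls held unequally. That of AT5G48500 was lost in 17 of 23 alternatives, of AT5G52280 in 16, of AT2G45340 and AT1G77020 in 10 each and of AT4G14270 in 9. Those of AT1G22160 and AT1G48750 were lost in 0. In this list, AT5G17600 reached log2 4 only in its ABA arrays (5.59, 4.86 and 4.54). AT1G28570 reached it in its ABA arrays (4.7, 4.63 and 5.94) and otherwise only in the control array numbered 3 (5.05). Without the ABA arrays, where they were chosen high, neither gene would have passed the filter, so nothing is read from their calls.

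Set against DFPM alone, the level with both agents was higher for all 81 genes by group mean, with a median difference of 1.89 (range 0.04 to 8.23) and -0.09 over all probe sets. The test called 33 genes higher and 0 lower, or 40.7%, where 14.2% of all probe sets were called (8.04% higher). Groups did not overlap for 43 genes, or for 32.5% of all probe sets. As the genes were chosen low with DFPM, this direction too is partly fixed by the choice. The count was 64 with the replicate block (35.2% of all probe sets called), but 22 with the block and numbers 1 and 2 averaged (5.65% of all, 17 of the 33 genes among them). It was 71 without the 4 arrays numbered 3 (51.1% of all, 32 of the 33 among them, AT1G22160 being the exception), 4 without those numbered 1 (0.965% of all) and 3 without those numbered 2 (0.979% of all). Single arrays moved it as well, to 15 without ABA+DFPM replicate 1 (5.6% of all), 19 without ABA+DFPM replicate 2 (6.35% of all), 56 without ABA+DFPM replicate 3 (22.5% of all) and 18 without DFPM replicate 2 (6.42% of all). The sign was positive in all 3 replicate numbers for 74 genes, with medians of 2.01, 2.1 and 1.63, against -0.12, -0.06 and -0.04 over all probe sets. This sign is likewise partly fixed by the choice, and its share over all probe sets is not given.

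After AT2G41190, AT3G13672 and AT5G39520, the largest rise among the genes called against DFPM was that of AT1G79520, by 4.14 ± 0.41 (adjusted p = 0.000171). With their own symbols, TMT2, GTR1 (lost in 7 of 23 alternatives), GH3.17 and HIS1-3 were called here, and so were the following pair. TPS-CIN, the synthase of the monoterpene cineole, averaged 6.06 ± 0.75 with ABA+DFPM, 7.11 ± 0.83 with ABA, 2.78 ± 0.82 with DFPM and 4.43 ± 1.31 in controls (SD, n = 3 each). It differed by 3.28 ± 0.70 from DFPM (adjusted p = 0.0141, lost without ABA+DFPM replicate 1 or DFPM replicate 1 or 2) and by 1.63 ± 0.70 from controls (adjusted p = 0.0799, and 0.0014 with the replicate block). The RefSeq table gives the same symbol to the neighbouring gene, and the array may not tell the copies apart. MYR2, a MYB-related transcription factor, averaged 6.65 ± 0.08 with ABA+DFPM, 6.69 ± 1.06 with ABA, 3.59 ± 1.11 with DFPM and 5.24 ± 0.59 in controls (SD, n = 3 each). MYR2 differed by 3.06 ± 0.61 from DFPM (adjusted p = 0.0101) and by -0.04 ± 0.61 from ABA (adjusted p = 0.976), but by 0.52 from ABA without the 4 arrays numbered 3 (limma adjusted p = 0.0313).

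The other genes called higher than with DFPM were AT4G23670, AT5G45950, AT3G05180, AT1G20030, AT4G37220, AT5G57040, AT5G23750, AT5G42200, AT5G65470, AT4G09760, AT4G09500, AT1G30260, AT5G51890, AT1G30690, AT1G11210, AT4G04460, AT4G14270, AT5G17600, AT3G55760, AT5G48500, AT1G48750 and AT1G22160, with differences from 3.67 down to 0.91, and AT5G10770, whose adjusted p lay just under the threshold. These calls also held unequally. That of AT1G22160 was lost in 17 of 23 alternatives, of AT5G48500 in 14, of AT4G09760 in 13 and of AT4G37220 in 12, while those of AT5G23750 and AT4G09500 were lost in 1 each. As said above, AT5G17600 passed the filter only through its ABA arrays, and nothing is read from its call here either. AT1G30260, with the synonym AGAMOUS-like 79 after a family of transcription factors, held the groups apart in all 3 comparisons: it averaged 7.80 ± 0.14 with ABA+DFPM, 8.48 ± 0.34 with ABA, 5.64 ± 0.47 with DFPM and 7.12 ± 0.30 in controls (SD, n = 3 each).

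**Figure D4:**
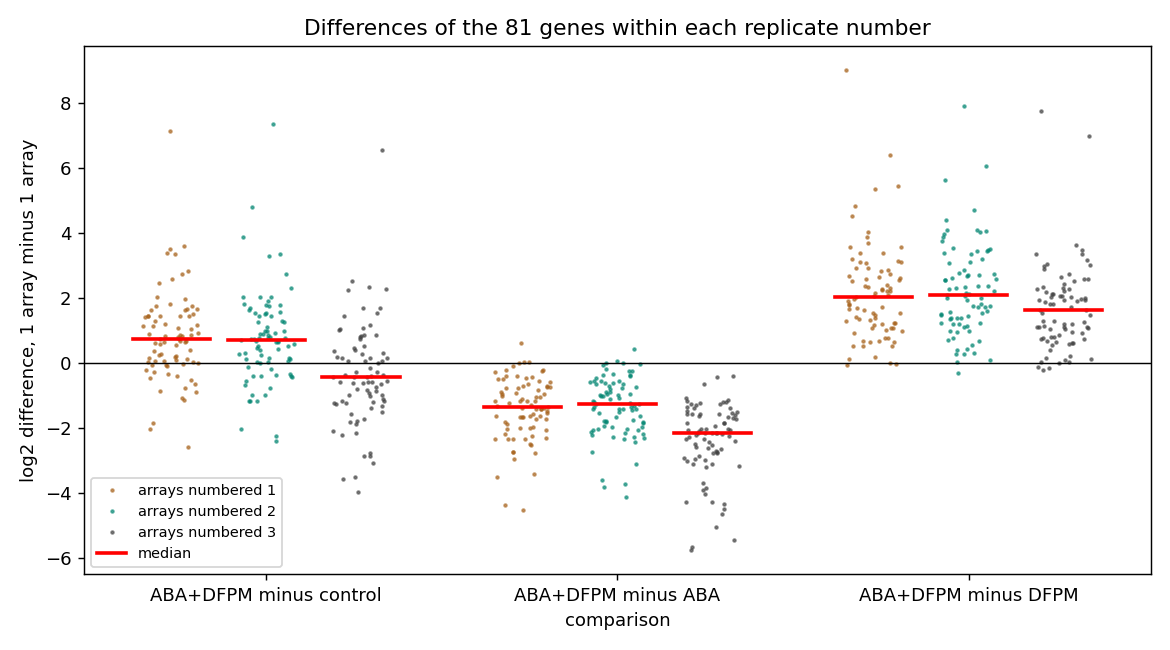
Log2 difference of each of the 81 genes between single arrays of the same replicate number (points), for ABA+DFPM minus control, minus ABA and minus DFPM; red lines are medians. Against control the medians are 0.74 and 0.70 for numbers 1 and 2 and -0.45 for number 3, while against ABA all 3 medians lie below 0 and against DFPM all 3 lie above 0.

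The remaining genes with a symbol were not called in any of the 3 comparisons over 12 arrays. Among genes of carbohydrate metabolism and the cell wall, APL3, a large subunit of ADP-glucose pyrophosphorylase, which makes the precursor of starch, averaged 5.52 ± 0.40 with ABA+DFPM, 7.27 ± 1.48 with ABA, 3.37 ± 0.55 with DFPM and 4.94 ± 1.90 in controls (SD, n = 3 each). XTH19, an enzyme that cuts and rejoins xyloglucan in the cell wall, averaged 8.26 ± 1.00 with ABA+DFPM, 9.16 ± 1.57 with ABA, 5.90 ± 2.1 with DFPM and 7.87 ± 1.90 in controls. EXLA1, an expansin-like protein, averaged 11.08 ± 1.59 with ABA+DFPM, 12.34 ± 0.62 with ABA, 8.54 ± 1.36 with DFPM and 9.73 ± 0.67 in controls. All 3 had their ABA+DFPM mean above their control mean, by 0.59 ± 0.92, 0.39 ± 1.24 and 1.36 ± 0.84 (SE). For EXLA1 the adjusted p against controls was 0.204, and 0.00776 with the replicate block.

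Of the enzymes of plastids and small molecules, NOL, a chlorophyll b reductase that takes part in the loss of chlorophyll, averaged 7.58 ± 1.41 with ABA+DFPM, 8.37 ± 0.64 with ABA, 5.21 ± 2.09 with DFPM and 6.82 ± 0.79 in controls. AOR, an oxidoreductase that detoxifies reactive carbonyls, averaged 8.24 ± 1.54 with ABA+DFPM, 9.80 ± 0.49 with ABA, 6.58 ± 1.18 with DFPM and 8.47 ± 0.39 in controls. CXE18, a carboxylesterase, averaged 6.52 ± 0.52 with ABA+DFPM, 8.14 ± 0.28 with ABA, 4.35 ± 1.46 with DFPM and 5.81 ± 1.43 in controls. None of the 3 differed from controls by more than its standard error: 0.76 ± 0.99, -0.23 ± 0.75 and 0.71 ± 0.78. The tetraspanin TET10, a membrane protein, averaged 8.16 ± 1.48 with ABA+DFPM, 9.29 ± 0.86 with ABA, 6.08 ± 1.38 with DFPM and 7.21 ± 1.36 in controls. Its 3 numbers moved in parallel, so that its difference of 0.95 ± 0.95 from controls had an adjusted p of 0.433 without and 0.00526 with the replicate block.

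Genes known by locus tag that were not called in any of these comparisons were, with an ABA+DFPM mean above the control mean, AT5G45310, AT3G15900, AT2G38465, AT4G01410, AT2G39920, AT1G62510, AT4G02630, AT1G60160, AT5G47550, AT5G18600, AT2G05540 and AT4G18810, with differences from 3.17 down to 0.06. With an ABA+DFPM mean below the control mean they were AT5G37540, AT1G04350, AT2G12400, AT4G33490, AT1G14120, AT4G38690, AT5G25240, AT5G48480, AT5G20700, AT2G16630, AT4G30450, AT3G62550, AT4G31330, AT2G04570, AT1G07440 and AT5G03120, with differences from -0.02 to -1.76. The widest of these was AT1G62510, whose difference from controls of 0.68 had a standard error of 2.13. AT4G31330 and AT1G14120 met the DFPM condition through the control array numbered 3. AT4G31330 measured 2.55, 2.53 and 6.21 in controls and 2.61, 2.55 and 2.59 with DFPM. AT1G14120 measured 2.54, 2.56 and 5.71 in controls and 2.5, 2.14 and 2.74 with DFPM. Further genes leaned on the arrays numbered 3 for that condition, and those given here are not a full list. AT2G05540 measured 13.27, 13.22 and 10.58 in controls and 13.27, 13.08 and 6.69 with DFPM. AT5G18600 measured 10.26, 10.59 and 6.58 in controls and 9.87, 10.15 and 3.11 with DFPM. AT1G28570, named above, measured 3.15, 3.28 and 5.05 in controls and 2.94, 2.84 and 2.27 with DFPM.

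Whether the ABA effect with DFPM differed from that without it was tested gene by gene as an interaction. The median interaction of the 81 genes was -0.08 (range -2.56 to 1.83, median standard error 0.95), and 0.00 over all probe sets. It is built in part from the ABA, DFPM and control values that chose the genes, and with standard errors of this size it does not decide whether the effects of the agents add up on the log2 scale. The limma test called 0 of the 81 genes, where 0.375% of all probe sets were called. At an unadjusted p under 0.05 it was 6 genes, or 7.41%, against 6.50% of all probe sets. The lowest adjusted p was that of AT1G12845, 0.0744 at -1.66 ± 0.33. With the replicate block 1 gene was called (1.4% of all probe sets) and with numbers 1 and 2 also averaged 0, as over all probe sets, where 924 had an unadjusted p under 0.05; without the 4 arrays numbered 3 it was 15 genes, 9 higher and 6 lower, where 8.69% of all probe sets were called. Among these, without those arrays, were GH3.17 at 1.82 (adjusted p = 0.00591), HIS1-3 at 2.20 (adjusted p = 0.0201), AT1G12845 at -1.83 (adjusted p = 0.0148) and AT5G45950 at -1.01 (adjusted p = 0.036). Here too the p-values rest on the closely alike arrays numbered 1 and 2 alone and may be too small.

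Genes that met one of the conditions alone were set beside the 81. Of 700 probe sets of 1 gene at least 1 higher with ABA and within 1 of controls with DFPM, ABA+DFPM called 473 higher and 2 lower than controls, 67.9% in all, with a median ABA+DFPM minus control difference of 1.43 and a median ABA+DFPM minus ABA difference of -0.43. Of 542 probe sets of 1 gene at least 1 lower with DFPM and within 1 of controls with ABA, it called 0 higher and 297 lower, 54.8% in all, with a median ABA+DFPM minus control difference of -1.50 and a median ABA+DFPM minus DFPM difference of -0.08. The 81 genes had 13.6% called and a median of 0.24 against controls. The probe sets most like them, 81 with the same differences but with no gene name or several, had 22 called higher and 3 lower, 30.9% in all, and a median of 0.39. Median standard errors were 0.68 for the 81 genes, 0.37 for the 700, 0.51 for the 542 and 0.58 for the 81 probe sets with no name or several, and the difference between these sets was not tested. The control arrays helped to choose every set. They were chosen low against ABA in the 700, high against DFPM in the 542, and between ABA and DFPM in the others. The counts against controls are therefore partly fixed by the choice, and no conclusion is drawn from their contrast.

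None of the 81 genes was in a list of 32 ABA-inducible stress genes, of which 6 had a probe set that carried their name and passed the filter. The other gene lists and cell type markers looked up held none of the 81 either, and few of their genes had such a probe set. The rule itself barred COR15B and COR47, so nothing is read from this absence. Of these 6, 5 were called higher with ABA+DFPM than in controls (LEA4-5, LTI30, COR47, COR15B and COR15A), and XERICO was not, at -0.59 ± 0.52 (adjusted p = 0.371). Against ABA 3 were called lower: COR15A, encoding a cold-regulated chloroplast protein, by a difference of -3.24 ± 0.36 (adjusted p = 0.000542), COR15B by -1.68 ± 0.39 (adjusted p = 0.0212) and LEA4-5 by -1.18 ± 0.29 (adjusted p = 0.0266). COR15B and COR47 met both differences of the rule and were among the 3 left out by symbol. The median ABA+DFPM minus control difference of the 6 was 3.03, against 0.24 for the 81 genes. The sets also differed with single agents. The median ABA minus control difference was 3.88 for the 6 and 1.83 for the 81, and the median DFPM minus control difference was -0.8 and -1.45. No conclusion is drawn from the contrast.

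Of the 81 genes, 80 matched the RefSeq table, and these lay on all 5 nuclear chromosomes, 24 on chromosome 1, 9 on 2, 9 on 3, 17 on 4 and 21 on 5, which is 1.2%, 0.796%, 0.585%, 1.54% and 1.15% of the named genes kept there. AT5G57785 is named by the platform table alone. AT5G48500 and AT5G48480 were the closest pair, with 2 coding genes between them.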

How the data were processed

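The deposited values are log2 expression levels, 1 for each probe set, made by the authors with GCRMA and affy, per the submitters' processing notes, which name no versions or settings. They run from 2.14 to 15.6, were kept as deposited, and no array was left out of the main comparison. Arrays give no read depth, and precision is limited by the 3 arrays per group. The 64 Affymetrix control probe sets were left out, and probe sets at log2 4 or above in at least 3 of 12 arrays were kept (14401 of 22746). Gene names came from the platform table and RefSeq rows of TAIR10.1; probe sets with several or no names were tested but not named. No sequences or coordinates were used.

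Groups were compared with limma 3.58.1 (R 4.3.3; lmFit, eBayes) on all 12 arrays, which shared 1 residual variance for a probe set, without covariates and two-sided, and a probe set was called at a Benjamini-Hochberg adjusted p under 0.05 over all 14401. The interaction was ABA+DFPM minus DFPM, less ABA minus control. The script was tested on simulated data. Python 3.11.15, pandas 2.3.3, numpy 2.4.6 and matplotlib 3.10.9 made tables and figures.

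The 81 genes and the gene lists were chosen with earlier results of these data known. All 81 were named; values in every array were given for the genes called with ABA+DFPM against control and for the 12 with the largest smaller difference of the rule, 20 in all. Arrays with the same replicate number deviated together from their group means in all 18 pairs (r of 0.426 to 0.802), but so did numbers 1 and 2 (0.38 to 0.701 in 12 pairs), while number 3 against 1 or 2 gave -0.766 to -0.432, a sign that centring on group means favours. The data thus set number 3 apart more than they pair the numbers, no label gives a pairing, and the block stayed an alternative, run also with numbers 1 and 2 averaged. Alternatives were the replicate block, the filter, normalization, eBayes settings, the samples fitted, the thresholds of the rule and leaving out arrays.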

Additional observations from a re-analysis of the deposited data

How the results depend on the processing

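The direction of the median differences of the 81 genes held under every normalization, rule threshold and left-out array tried, and the median position of ABA+DFPM between DFPM and ABA under the normalizations and left-out arrays, with medians of 0.07 to 0.76 against control, -1.73 to -1.20 against ABA and 1.37 to 2.26 against DFPM, and positions of 0.45 to 0.62, when 1 array at a time was left out. The choice partly fixes the directions against ABA and DFPM and largely fixes the place between them, so their holding is no sign of robustness. At other rule thresholds the medians are those of the genes chosen there, not of the 81. Whole replicate numbers were not left out for these medians. Within the numbers, the direction against control was not kept: the median was 0.74 in number 1, 0.70 in number 2 and -0.45 in number 3. Counts of called genes were less stable under the settings tried. The replicate block gave 31 genes called with ABA+DFPM against control, 60 against ABA, 64 against DFPM and 1 for the interaction, and held every call of the fit without it in the first 3 comparisons. With numbers 1 and 2 averaged before the block they were 16, 28, 22 and 0, and 9 of 11, 19 of 27 and 17 of 33 calls were held. Leaving out the 4 arrays numbered 3 gave 56, 64, 71 and 15, where 68.6%, 36.6%, 51.1% and 8.69% of all probe sets were called. Leaving out those numbered 1 gave 6, 3 and 4, and those numbered 2 gave 3, 3 and 3 in the first 3. Leaving out 1 array at a time gave 9 to 20 against control, 14 to 33 against ABA, 15 to 56 against DFPM and 0 to 1 for the interaction. Without a filter on low values 17 genes were called against ABA and 21 against DFPM, with more probe sets tested, and a fit to the arrays of the 2 groups alone gave 21 against DFPM.

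Centring each array on its median gave 17 genes called against control, 14 of them higher, with 4234 of all probe sets higher and 2702 lower, where the values as deposited gave 3172 higher and 3661 lower. It also put the median ABA+DFPM minus control difference at 0.23 over all probe sets and at 0.52 over the 81 genes, and at 0.12 and -1.35 for ABA+DFPM minus ABA. A threshold of 0.8 in the rule chose 136 genes, with a median ABA+DFPM minus DFPM difference of 1.54. A threshold of 1.5 chose 25 genes, with medians of 2.5 against DFPM and -2.11 against ABA. Of the 81 genes, 25 also passed the limma test in both comparisons of the rule, and leaving out 1 array gave 68 to 102 genes, with as few as 53 of the 81 among them without control replicate 3 and 55 without DFPM replicate 3. Some genes changed sign and were called in the new direction. ABA+DFPM minus control of AT1G57590 ran from -0.58 to 0.91 when 1 array was left out, the highest without ABA+DFPM replicate 3. Without the 4 arrays numbered 3 it was 0.99 for AT1G57590, 0.58 for AT5G37540, 1.00 for AT3G62550, 0.81 for AT1G04350, 1.48 for AT1G09310 and 0.44 for AOR, and ABA+DFPM minus ABA was 0.52 for MYR2. The cause was not tested.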
